A study of Mus musculus with 3 samples.

Results

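The genes described here are those of the cell nucleus that encode subunits of the mitochondrial respiratory chain, complexes I to V, together with cytochrome c. Membership was set by name alone, although the name pattern was chosen with earlier results of these data known. A probe (1 sequence of the array) was taken where its RefSeq messenger RNA accession belongs to a gene whose symbol starts with Nduf followed by a, ab, b, c, s or v and a number, Sdh a to d, Uqcr, Cox 5 to 8 with a letter, or Atp5, or is Cyc1 or Cycs, and the assembly factors named Ndufaf were left out. This gave 84 of 23454 named genes, read by 106 of 56591 probes. Of the 84 genes, 38 belong to complex I, 4 to complex II, 9 to complex III, 15 to complex IV and 17 to complex V, and Cycs is cytochrome c itself. The symbol pattern does not take in the paralogs Cox4i1 and Cox4i2 of complex IV, which are given beside complex IV and counted nowhere else. By accession, none of the 56591 probes used matched 4 further protein-coding genes of these names, Cox5b, Ndufb1, Ndufb4b and Ndufb4c.

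The study set blastocysts of young mothers beside blastocysts of aging mothers, and asked what changes in the latter when signaling of the chemokine CXCL5 through its receptor CXCR2 is suppressed. All embryos were of the ICR mouse strain, were taken as zygotes 18 h after the hCG injection and were cultured for 96 h. The mothers were 3 to 6 weeks old for young blastocysts and 43 to 53 weeks old for aging ones. Suppressed aging blastocysts had mothers of the same older range and were grown with 10 μg/ml of an anti-CXCL5 neutralizing antibody together with 10 nM of a CXCR2 antagonist, so neither agent can be separated from the other. Each condition was a single pool of 30 blastocysts hybridised to 1 Agilent array, and all 3 arrays lay on the same slide. With 1 array per condition there is no error between embryos, no test was made, and every value below is a description of these 3 pools. Within a pool, fewer cells of a type and less RNA per cell cannot be told apart.

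The respiratory chain sits in the inner mitochondrial membrane. Complexes I and II pass electrons from NADH and succinate to ubiquinone, complex III passes them on to cytochrome c, and complex IV passes them to oxygen. Complexes I, III and IV pump protons as they do so, and complex V, the ATP synthase, lets the protons flow back and makes ATP. Most subunits are encoded in the nucleus and a few in the mitochondrial genome, and the latter are not described here. In the mouse embryo, pyruvate and lactate feed this chain from the zygote on, and oxygen use is higher at the blastocyst stage, when the trophectoderm pumps fluid into the cavity. Many nuclear subunit genes are known targets of the factors NRF1, GABP and YY1.

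The promoters of 4 members are shown because the results turn on 2 of these genes, Ndufb10 and Cox7b2, and because the others, Cycs and the common isoform gene Cox6a1, carry a motif that was found in many members. Each line is the 250 bases before the RefSeq start of the gene in build GRCm38.p6, written 5′ to 3′ along the gene, all on the minus strand. Capitals mark matches on either strand to the NRF1 motif GCGCNTGCG.
Ndufb10 (chr17:24724424-24724673): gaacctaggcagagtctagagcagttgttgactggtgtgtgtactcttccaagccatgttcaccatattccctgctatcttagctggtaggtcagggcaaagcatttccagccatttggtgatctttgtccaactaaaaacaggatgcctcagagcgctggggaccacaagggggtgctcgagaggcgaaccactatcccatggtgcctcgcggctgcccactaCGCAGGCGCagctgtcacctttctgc
Cycs (chr6:50566570-50566819): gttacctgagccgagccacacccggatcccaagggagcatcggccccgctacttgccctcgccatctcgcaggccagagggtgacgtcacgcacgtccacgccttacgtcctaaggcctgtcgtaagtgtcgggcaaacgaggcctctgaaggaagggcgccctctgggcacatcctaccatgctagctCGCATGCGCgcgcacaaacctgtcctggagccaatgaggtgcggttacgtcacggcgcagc
Cox6a1 (chr5:115348959-115349208): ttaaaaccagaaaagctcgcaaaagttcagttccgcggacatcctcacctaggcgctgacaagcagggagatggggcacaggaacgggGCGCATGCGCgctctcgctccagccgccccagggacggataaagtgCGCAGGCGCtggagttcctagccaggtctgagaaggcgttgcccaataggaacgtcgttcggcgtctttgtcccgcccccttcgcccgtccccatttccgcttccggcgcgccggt
Cox7b2 (chr5:71548206-71548455): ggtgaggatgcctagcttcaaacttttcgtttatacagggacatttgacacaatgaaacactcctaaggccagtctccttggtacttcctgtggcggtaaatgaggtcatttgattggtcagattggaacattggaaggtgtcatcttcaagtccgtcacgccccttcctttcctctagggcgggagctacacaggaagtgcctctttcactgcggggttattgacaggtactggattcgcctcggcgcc

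A match began 26 bases before the start in Ndufb10 and 61 bases before it in Cycs. Cox6a1 held 3 matches, of which a pair overlap, and Cox7b2 held none. Over a window from 250 bases before to 50 after the start, RefSeq promoters were at hand for 69 of the 84 members. The NRF1 motif was found in 25 of them (36.2%), against 7.12% of 27025 genes with a promoter at hand. The YY1 motif AAGATGGCG was found in 7 members (10.1%, against 1.64% of all genes) and the ETS motif CCGGAAGT, which GABP reads, in 5 (7.25%, against 4.31%). At least 1 of the 3 motifs, whose letters do not contain each other, was present in 34 members (49.3%) and in 12% of all genes. Between aging and young blastocysts the median log2 difference was -0.23 in members with the NRF1 motif and 0.06 in those without it. For the YY1 motif these medians were 0.15 and -0.01, and for the ETS motif -0.06 and -0.00. Over all bright genes with a promoter the medians were 0.09 in 996 genes with the NRF1 motif and 0.04 in 4783 genes without it. Between suppressed aging and aging blastocysts the medians of members with and without the NRF1 motif were 0.05 and 0.09. A match is a run of letters and does not show that a factor binds there.

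Levels are given as log2 of the background-subtracted spot intensity minus the 75th percentile of the array, so that 0 is the intensity below which 75 in 100 probes of that array lie. The brightness of a spot also depends on its sequence, so a level is compared with the same probe on another array and not with other probes. On this scale the subunit genes were bright on every array. Of the 84 genes, 80 were well above background on all 3 arrays by the call of the scanner software, 3 were so on none (Cox8b, Cox8c and Ndufa4l2) and 1 on some of them (Cox7b2). Above the 75th percentile on all 3 arrays lay 79 genes, or 94%, each read by its brightest probe. Of all single probes, taken without such a choice, 22.1% lay there. Over the 80 genes above background on all 3 arrays, the median level was 5.24, 5.28 and 5.29 on the young, aging and suppressed aging array. By complex it was 4.78, 4.73 and 4.82 for complex I, 3.53, 3.39 and 3.48 for complex II, 5.89, 6.35 and 6.28 for complex III, 5.84, 5.94 and 5.81 for complex IV and 6.12, 5.87 and 5.98 for complex V. The median level of complex III differed most between arrays, while its difference taken gene by gene had a median of 0.11. Ndufab1, the acyl carrier protein gene, was at 0.27, 0.02 and 0.03.

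**Figure D1:**
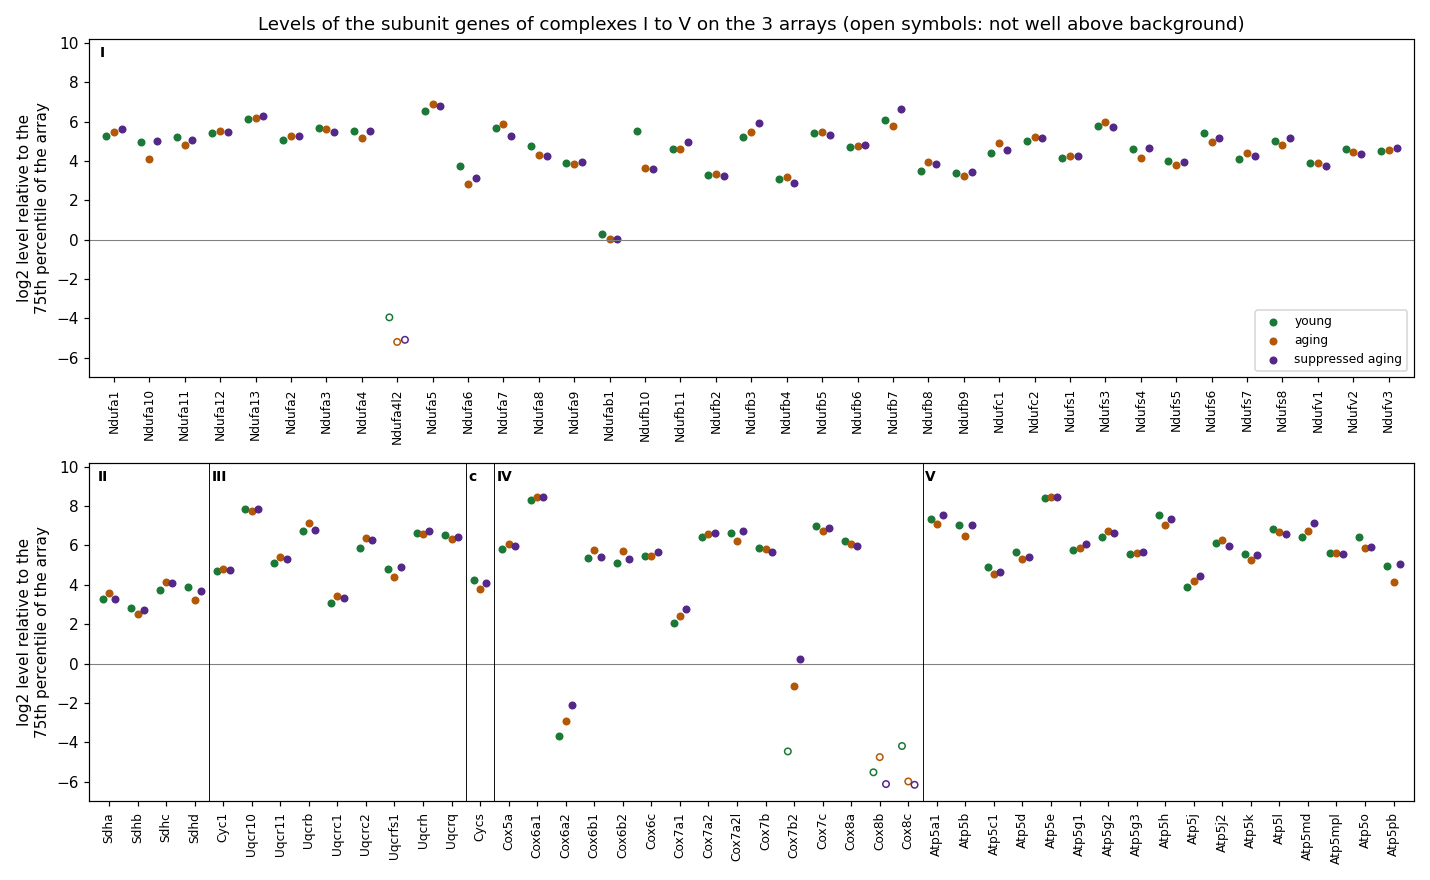
Log2 level of the subunit genes (vertical axis, relative to the 75th percentile of the array, line at 0) on the young, aging and suppressed aging array, with complex I above and complexes II, III, cytochrome c (marked c), IV and V below. For most genes the 3 points lie nearly on each other, Ndufb10 stands higher on the young array, and the genes below 0 on at least 1 array are Ndufa4l2 and the complex IV isoform genes Cox6a2, Cox7b2, Cox8b and Cox8c.

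The precision within an array can be read from sequences that were spotted several times. The median SD between such spots was 0.053, 0.050 and 0.046 on the log2 scale on the young, aging and suppressed aging array. One member was among them, Atp5g2, with 6.44 ± 0.10 (SD, 10 spots), 6.76 ± 0.053 (9 spots) and 6.61 ± 0.057 (10 spots) on the arrays in this order. This spread covers the spot and not the embryos. All 8 trophectoderm, 6 epiblast and 5 primitive endoderm markers were above background on all 3 arrays. So were 28788 of 56591 probes, so this call does not by itself identify the cells. The summed level of the 6 epiblast markers was 9.98, 10.26 and 10.15 on the young, aging and suppressed aging array. Nearly all of it came from Nanog at 9.88, 10.14 and 10.03. Among the 6, Sox2, Fgf4, Klf2 and Esrrb were 1.11 to 1.37 higher in aging than in young blastocysts. The summed level of the 8 trophectoderm markers was 8.98, 8.58 and 8.81, and Krt18 was the brightest of them at 8.05, 7.52 and 7.73. In aging against young blastocysts the factor gene Tfap2c was lower by 1.16 and the factor gene Elf5 higher by 0.91. The others differed by -0.53 (Krt18) to 0.01 (Krt8). Of 8 cumulus and granulosa markers, Foxl2, Ptgs2, Cyp19a1 and Amh were above background on all 3 arrays and Fshr, Inha, Has2 and Lhcgr on none, and the summed level was 8.66, 8.55 and 8.78, nearly all of it from Foxl2 at 8.66, 8.54 and 8.77. The part of these cell types in the differences below was not tested.

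Between aging and young blastocysts the respiratory chain genes as a whole differed little. A difference could be given for 81 of the 84 genes, of which 43 were higher and 38 lower in aging blastocysts, with a median log2 difference of 0.04, a lower quartile of -0.28 and an upper quartile of 0.24. The median over all 35758 probes that could be compared was -0.03, and over the 12502 probes above the 75th percentile on all 3 arrays it was 0.00. Only Cox7b2 was higher by 2-fold or more and only Ndufb10 lower by 2-fold or more. The share of all probes past 2-fold was 9.98% higher and 11.1% lower, and among the bright probes, which are the closer measure for these genes, 2.70% higher and 3.42% lower. Together 2 of 81 members (2.47%) passed 2-fold, against 6.12% of the bright probes. Cox7b2 is not itself among the bright probes. These reach down to a level of 0 and were not matched to the members in level, so the shares do not show that the members are more stable.

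The suppressed aging array gave a like picture against both other arrays. Against aging blastocysts, 45 genes were higher and 36 lower, and the median was 0.05 beside 0.02 for all probes and 0.04 for bright ones. Cox7b2 alone was past 2-fold and was higher, whereas all probes were past 2-fold in 9.86% (higher) and 9.10% (lower) and bright probes in 3.11% and 1.63%. Against young blastocysts, 48 genes were higher and 33 lower, and the median was 0.06 beside -0.00 for all probes and 0.05 for bright ones. Cox7b2 and Cox6a2 were then higher and Ndufb10 lower by 2-fold or more, beside 8.88% and 9.19% of all probes and 2.89% and 2.37% of bright probes. The comparisons share arrays, so a gene that is dim by chance on the aging array is lower in the first and higher in the second. Neither Cox7b2 nor Cox6a2 is among the bright probes. Of the 80 genes above background on all 3 arrays, 69 (86.2%) stayed within 1.5-fold between every pair. This share was 46.7% for all probes above background on the 3 arrays and 64.1% for the bright ones. Each member was read by its brightest probe and the other probes were not matched in level, so these shares are not like for like.

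**Figure D2:**
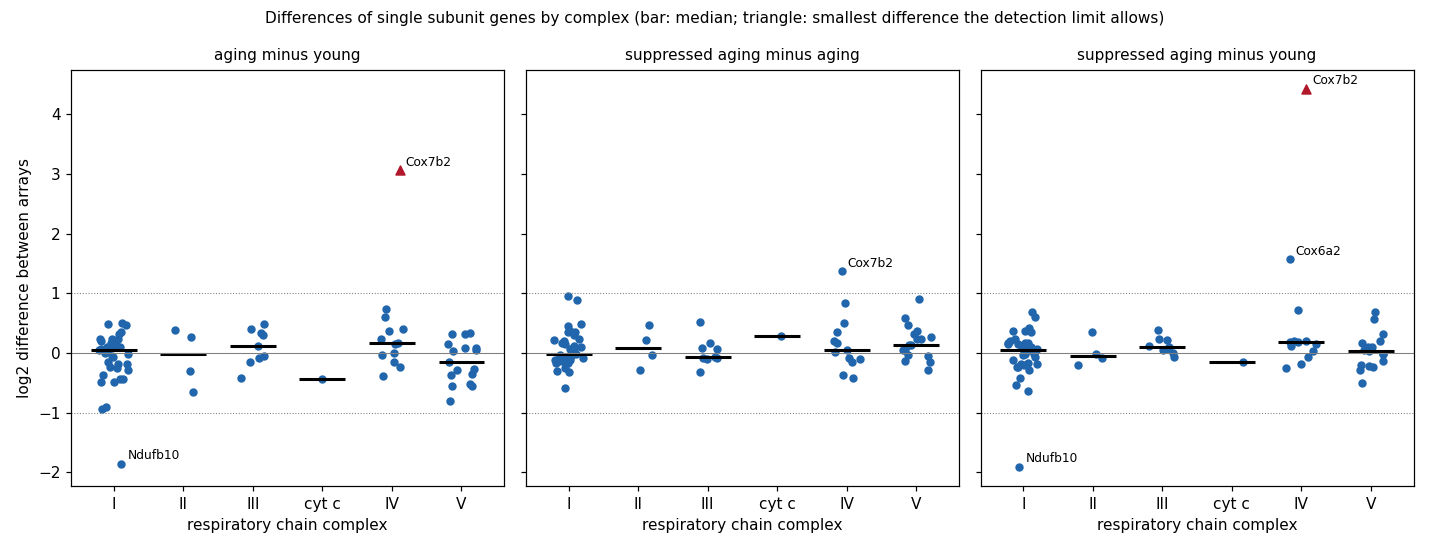
Log2 difference of each subunit gene between 2 arrays (vertical axis) by complex (horizontal axis) for the 3 comparisons, with bars at the median, dotted lines at 2-fold and triangles where the dimmer array gives only a bound. Medians lie near 0 in every complex with several genes, and the genes past 2-fold are Ndufb10, Cox7b2 and Cox6a2.

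Complex I takes electrons from NADH through a core of catalytic subunits, which hold the flavin and the iron-sulfur clusters. Of the 6 nuclear core genes described here, 3 were higher and 3 lower in aging than in young blastocysts, and 5 were lower and 1 higher in suppressed aging than in aging ones. Ndufs7, a subunit at the ubiquinone site, was at 4.09, 4.40 and 4.25, and Ndufs3, a subunit of the same arm, at 5.75, 5.99 and 5.74. These were higher by 0.31 and 0.24 in aging than in young blastocysts. Ndufs8, which carries clusters near the quinone site, was at 5.01, 4.82 and 5.16 and was the 1 of these genes that was higher in suppressed aging than in aging blastocysts, by 0.35. Ndufs1, the largest core subunit, was at 4.15, 4.27 and 4.25. The NADH-binding module genes Ndufv1, which holds the flavin, and Ndufv2 were at 3.91, 3.91 and 3.74 and at 4.61, 4.43 and 4.37. By these probes Ndufs1, Ndufv1 and Ndufv2 each differed by at most 0.24 between any pair of arrays, but a second probe of Ndufv1 was at 2.80, 2.29 and 2.15, lower than in young blastocysts by 0.52 in aging and by 0.66 in suppressed aging ones.

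The other 31 complex I genes encode accessory subunits, which surround the core and are needed for its assembly and stability, and 30 of them could be compared. In aging blastocysts 15 were higher and 15 lower than in young ones, and their median difference was 0.01. Ndufb10, a subunit of the membrane arm, was the exception in size. Its levels were 5.50, 3.64 and 3.59 on the young, aging and suppressed aging array. It was therefore high in young blastocysts and near the same lower level in both groups of older mothers, 3.63-fold lower in aging and 3.76-fold lower in suppressed aging than in young blastocysts. The difference between the latter groups was -0.05. Ndufb10 was read by 1 probe in 1 spot, so no second sequence bears on it, and its promoter, shown above, holds an NRF1 match close to the start.

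Ndufa10 and Ndufa6 followed in size. Ndufa10, a nucleoside-kinase-like subunit of the membrane arm, was at 4.98, 4.08 and 5.03 by its brighter probe and at 3.63, 2.89 and 3.65 by its other probe. Both probes put the aging array lowest, with differences from young of -0.90 and -0.75, and the suppressed aging array within 0.05 of the young one. Ndufa6, a subunit at the quinone end of the peripheral arm, was at 3.76, 2.82 and 3.12 and was lower than in young blastocysts by 0.94 in aging and by 0.64 in suppressed aging ones. It has 1 probe. Ndufb7, a membrane arm subunit that faces the intermembrane space, was at 6.06, 5.77 and 6.66 and stood 0.89 higher in suppressed aging than in aging blastocysts, while Ndufa7 at 5.69, 5.86 and 5.27 was the lowest of complex I in that comparison, at -0.58. Ndufb3 was at 5.23, 5.47 and 5.92 and was the highest of complex I in suppressed aging against young blastocysts, by 0.69. The other accessory genes lay between -0.49 (Ndufa8) and 0.49 (Ndufb8) in aging against young blastocysts. Ndufa4, first assigned to complex I and now known as a subunit of complex IV, is counted here by its symbol and was at 5.54, 5.17 and 5.52. Its paralog Ndufa4l2, which hypoxia induces in other cells, was not above background on any array.

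Complex II is succinate dehydrogenase, which links the citric acid cycle to the chain and has no mitochondrially encoded part. In aging against young blastocysts 2 of its 4 genes were higher and 2 lower. Sdha, the flavoprotein, was at 3.31, 3.57 and 3.28 by its brighter probe and at 1.14, 0.51 and 1.19 by the other. The probes thus differed in direction (0.27 and -0.62), and no direction is given for Sdha. Sdhb, the iron-sulfur subunit, was at 2.82, 2.51 and 2.73, lower by 0.31 in aging blastocysts, and its second probe gave a difference of -0.18. The membrane anchors went apart. Sdhc was at 3.76, 4.14 and 4.11, higher by 0.38 in aging blastocysts, and Sdhd was at 3.88, 3.22 and 3.68, lower by 0.66. In suppressed aging against aging blastocysts Sdhd was higher by 0.47 and Sdhc differed by -0.04.

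Complex III, the cytochrome bc1 complex, had no gene past 1.5-fold in any comparison. In aging blastocysts 5 of its 9 genes were higher and 4 lower, and the median difference was 0.11. Uqcrc2, a core scaffold subunit, was at 5.89, 6.37 and 6.28, and Uqcrb, a small subunit next to the quinone site, at 6.73, 7.13 and 6.81. These were the highest in aging against young blastocysts, at 0.48 and 0.40, and the second probe of Uqcrb gave 0.54. Uqcrfs1, the Rieske iron-sulfur protein, was at 4.80, 4.39 and 4.91. It was the lowest of the complex in aging against young blastocysts, at -0.41, and the highest in suppressed aging against aging ones, at 0.52. Cyc1, cytochrome c1, hardly moved, at 4.68, 4.80 and 4.74. Cycs, the mobile cytochrome c, was at 4.23, 3.80 and 4.08 by its brighter probe, a difference of -0.44 in aging blastocysts, but at 1.42, 1.46 and 0.73 by the other probe, a difference of 0.04. The probes again differed, and most in suppressed aging against aging blastocysts, with 0.29 and -0.73.

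Complex IV is cytochrome c oxidase, and several of its nuclear subunits exist as a common isoform and as isoforms restricted to muscle or testis. Among the 9 genes for common isoforms and single-copy subunits, 5 were higher and 4 lower in aging than in young blastocysts, and the median difference was 0.00. Cox6a1 was at 8.29, 8.45 and 8.47, Cox7b at 5.86, 5.83 and 5.67 and Cox8a at 6.20, 6.06 and 5.96. Each of these differed by at most 0.25 between any pair of arrays. The others ran from Cox7a2l, also called Scaf1, which joins complexes III and IV in supercomplexes, at 6.64, 6.25 and 6.75, to Cox6b1, an intermembrane-space subunit, at 5.38, 5.79 and 5.42. In aging against young blastocysts they differed by -0.39 and 0.40, the ends of this group. Cox5a was at 5.83, 6.06 and 5.98, Cox6c at 5.46, 5.46 and 5.66, Cox7a2 at 6.45, 6.60 and 6.65 and Cox7c at 6.97, 6.74 and 6.90. A second probe of Cox7c was at 4.71, 4.34 and 4.23. In suppressed aging against aging blastocysts the probes of Cox7c differed in direction, at 0.17 and -0.10. Outside the symbol pattern, the common Cox4i1 was at 7.88, 7.72 and 8.01 and the lung and hypoxia isoform Cox4i2 at 2.69, 2.58 and 2.66.

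The 6 genes for tissue isoforms gave the largest differences upward. Cox7b2, a testis isoform, was not above background on the young array, where its signal was -4.46 and the detection limit -4.20, and was at -1.14 and 0.23 on the aging and suppressed aging arrays. It was thus detected in both groups of older mothers and not in young blastocysts. The detection limit is the level of the dimmest probe called above background on an array. Set against this limit, Cox7b2 was at least 8.33-fold higher in aging and at least 21.6-fold higher in suppressed aging than in young blastocysts. It was 2.59-fold higher in suppressed aging than in aging ones, and all of these values rest on 1 probe in 1 spot. Cox6a2, the heart and skeletal muscle isoform, was at -3.67, -2.94 and -2.11. The detection limits of these arrays were -4.20, -4.32 and -3.93, and suppressed aging was 2.96-fold above young. With normexp background correction, which shrinks dim signals, Cox7b2 came to 0.72 in aging against young, 0.89 in suppressed aging against aging and 1.61 in suppressed aging against young blastocysts, and Cox6a2 to 0.09, 0.33 and 0.42. All of these kept their direction, and of them only the third value of Cox7b2 was past 2-fold.

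Cox7a1, the other muscle isoform, was at 2.06, 2.43 and 2.78 and was 0.72 higher in suppressed aging than in young blastocysts. Cox6b2, known from testis, was at 5.11, 5.71 and 5.30 and stood 0.60 higher in aging than in young blastocysts. Its levels thus peaked on the aging array, unlike those of the other measured tissue isoforms. Cox8b and Cox8c, isoforms of muscle and testis, were above background nowhere. Of the tissue isoforms above background on both arrays, 3 in number, all were higher in aging than in young blastocysts, with a median of 0.60. Cox7b2 was detected only on the arrays where it was high and is not counted among them. Markers of the tissues that use these isoforms were read as well. Of 6 heart and skeletal muscle markers 3 were above background on all arrays, their summed level was -0.42, 0.42 and 1.29 on the young, aging and suppressed aging array, and Actc1 and Ckm were above background nowhere. The cardiac myosin genes Myh6 and Myh7 were at -2.49, -0.25 and 0.33 and at -2.16, -1.46 and -0.62. The skeletal actin gene Acta1 was at -3.41, -3.97 and -3.78, and the troponin gene Tnnt2 was at -2.56 and -1.51 on the young and suppressed aging arrays and not above background on the aging one. Of 4 sperm and testis markers 3 were above background on all arrays, with a summed level of -0.80, -1.08 and -0.86, and Odf1 was above background nowhere. The 8 oocyte markers summed to -0.49, 0.93 and -0.43. Zp2 was higher by 2.35, Zp3 by 2.08 and Bmp15 by at least 2.95 in aging than in young blastocysts, Gdf9 and Nlrp5 differed by -0.06 and -0.30, and Zp1, Oosp1 and Mos gave no difference. The part of such cells or transcripts in the isoform values was not tested.

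**Figure D3:**
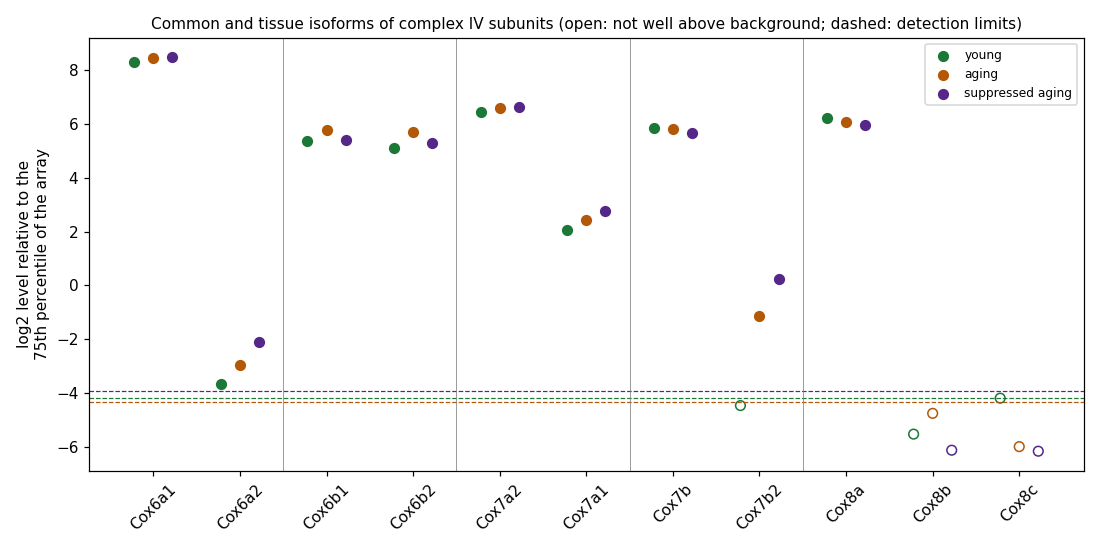
Log2 level (vertical axis, relative to the 75th percentile of the array) of common and tissue isoform genes of complex IV on the 3 arrays, with open symbols where the probe was not well above background and dashed lines at the detection limit of each array. Cox6a2 and Cox7b2 lie lowest on the young and highest on the suppressed aging array, Cox8b and Cox8c are open on every array, and Cox6a1, Cox7a2, Cox7b and Cox8a hardly move.

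Complex V, the ATP synthase, has a catalytic F1 head, a ring of c subunits in the membrane, a peripheral stalk that holds the head still and several small membrane subunits. Its 17 genes had a median of -0.15 in aging against young blastocysts, with 8 higher and 9 lower. This was the lowest of the complexes by the brightest probes, but with the mean over probes complex II was lower, at -0.21. In suppressed aging against aging blastocysts the median of complex V was 0.13, with 12 higher and 5 lower. The latter median was 0.03 with normexp correction and 0.06 with quantile normalization, with 10 higher and 7 lower in each. The head and the stalk carried the lower values. Of the 5 F1 genes 4 were lower in aging blastocysts, with a median of -0.35. Atp5a1, the alpha subunit, was at 7.34, 7.08 and 7.55 and its second probe at 5.18, 4.64 and 5.21, so both were lowest on the aging array. Atp5b, the catalytic beta subunit, was at 7.02, 6.47 and 7.06 by its brightest probe, a difference of -0.55 in aging blastocysts, while its other probes gave 0.05 and -0.12. In suppressed aging against aging blastocysts the brightest probe gave 0.58 and the others -0.07 and -0.31. The probes of Atp5b thus differed in direction in both comparisons. Atp5c1, the gamma shaft, and Atp5d, its delta partner, were at 4.88, 4.53 and 4.66 and at 5.68, 5.31 and 5.43. Atp5e, the small epsilon subunit, stayed at 8.41, 8.49 and 8.46.

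In the peripheral stalk, 3 of 4 genes were lower in aging than in young blastocysts. Atp5pb, subunit b, was at 4.97, 4.16 and 5.07 and its second probe at 4.30, 3.62 and 4.24, which makes differences of -0.81 and -0.69 in aging against young blastocysts and of 0.91 and 0.62 in suppressed aging against aging ones. On the suppressed aging array both probes were thus within 0.10 of the young one. Atp5h, subunit d, was lower in aging than in young blastocysts by all of its 3 probes, at -0.52, -0.60 and -0.48, and the same probes gave 0.32, 0.39 and 0.35 in suppressed aging against aging blastocysts. Atp5o, the subunit that ties the stalk to the head, was at 6.42, 5.87 and 5.92 by its brighter probe and at 4.19, 3.43 and 3.32 by the other. It differed from Atp5pb on the suppressed aging array, where both probes of Atp5o remained below the young array, by 0.50 and 0.87. Against the aging array they gave 0.05 and -0.11. Atp5j, the F6 coupling factor, was at 3.88, 4.21 and 4.45 and was the only stalk gene higher in aging blastocysts. The median of the 4 stalk genes was -0.54 in aging against young and 0.28 in suppressed aging against aging blastocysts.

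The 3 genes that encode the same c subunit with different targeting sequences were all slightly higher in aging than in young blastocysts. The differences were 0.09 for Atp5g1, 0.31 for Atp5g2 and 0.06 for Atp5g3. With the authors' processed values re-centred on each array, 2 of the 3 were higher. A second probe of Atp5g1 gave 0.49, and in suppressed aging against aging blastocysts its probes differed in direction, at 0.23 and -0.15. In the multiply spotted Atp5g2, the 10 young spots lay between 6.25 and 6.59 and the 9 aging spots between 6.69 and 6.84, so the spots of these arrays did not overlap, although spots are not replicates of a condition. The 5 small membrane subunits had a median of 0.03. Among them Atp5md, also known as Usmg5, was at 6.44, 6.76 and 7.13 by its brighter and at 5.45, 6.02 and 6.17 by its other probe, and was higher in suppressed aging than in young blastocysts by 0.69 and 0.71. Atp5j2, at 6.12, 6.28 and 5.98, was the lowest of complex V in suppressed aging against aging blastocysts, at -0.29. Atp5k, Atp5l and Atp5mpl differed by at most 0.28 in either direction between any pair of arrays.

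For 20 genes the array carries 2 or 3 probes, which are separate sequences read from the same pool. In aging against young blastocysts the probes of 16 of these genes shared a direction, 9 lower and 7 higher, and the median spread between the probes of a gene was 0.19. In suppressed aging against aging blastocysts 12 of 20 shared a direction, with a median spread of 0.24, and in suppressed aging against young blastocysts 14 of 20, with 0.17. Differences of all probes beyond 0.5 in 1 direction were found for 3 genes in aging against young blastocysts, Ndufa10, Atp5o and Atp5pb, all lower. In suppressed aging against aging blastocysts this held for 2 genes, Ndufa10 and Atp5pb, both higher, and in suppressed aging against young blastocysts for Atp5md. The like shares over all genes of the array with several probes were not worked out. These counts therefore do not show closer agreement than other genes have. Some probes disagreed by more. The dim second probe of Ndufb8 was at -1.20 and -1.16 on the young and aging arrays and not above background on the suppressed aging array, whereas the brighter probe was at 3.47, 3.96 and 3.84. A further Ndufa7 probe, matched to a non-coding RefSeq transcript and left out by the rule, was not above background in aging blastocysts, and its level was -2.52 on the young and -3.36 on the suppressed aging array.

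**Figure D4:**
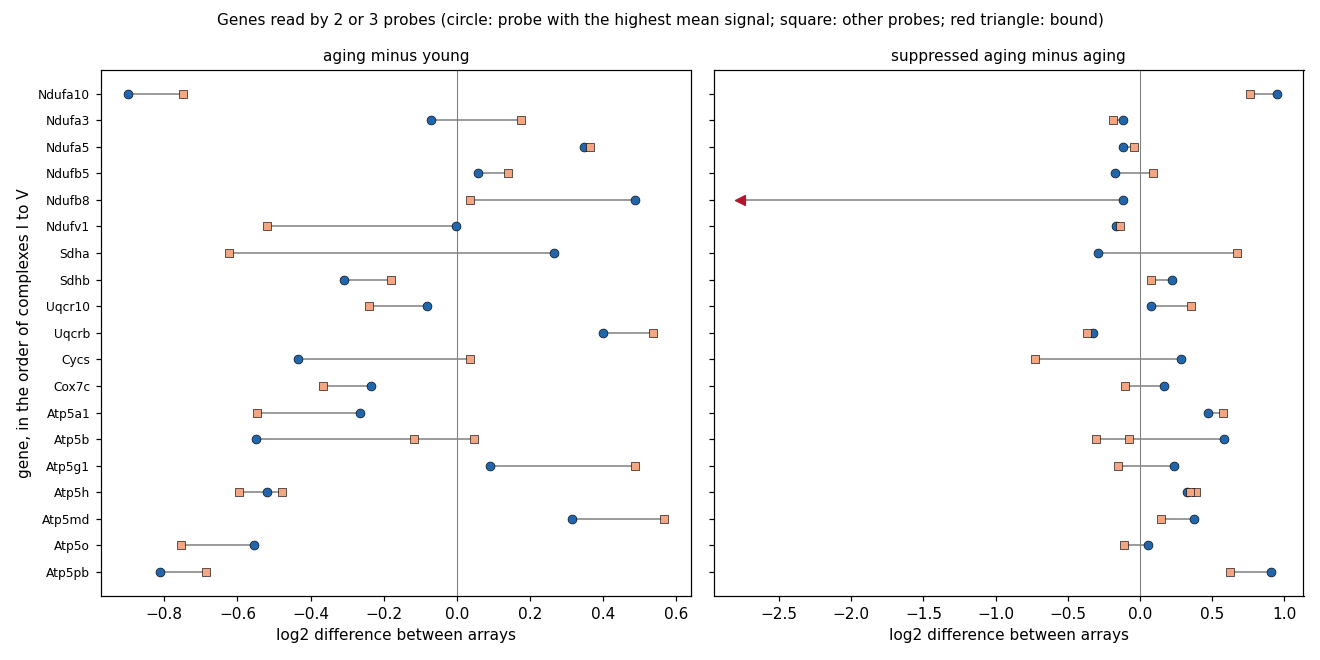
Log2 difference (horizontal axis) of each probe of genes with several probes, in aging minus young (left) and suppressed aging minus aging (right), with circles for the probe of highest mean signal, squares for the others and a red triangle for a bound. The probes of Ndufa10, Atp5pb and Atp5h lie close together left of 0 in the first panel and right of 0 in the second, whereas those of Sdha and Cycs lie far apart in the second.

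Assembly factors build the complexes without being part of them. Of 46 listed, 45 could be compared. In aging against young blastocysts 31 were higher and 14 lower, and the median difference was 0.20. Past 2-fold lay 3 of them above and 1 below the young level. The median size of a difference was 0.37, beside 0.26 for the subunits, 0.46 for all probes and 0.30 for the bright ones. Sdhaf1, which helps to mature the iron-sulfur subunit of complex II, was at 0.64, 2.04 and 1.37 and was 1.40 higher in aging blastocysts. Uqcc1 of complex III was 1.26 and Ndufaf8 of complex I 1.12 higher, and Tmem126b, a complex I factor, was at 0.32, -0.87 and 0.32, 1.18 lower. In suppressed aging against aging blastocysts 19 were higher and 26 lower, and the median difference was -0.02. Ndufaf7, Ttc19, Tmem126b and Ndufaf4 were then higher by 1.39, 1.23, 1.19 and 1.13, and Coa6, at 0.65, 1.53 and 0.53, was lower. Against young blastocysts 30 were higher and 15 lower in suppressed aging ones, and Foxred1, at 1.08, was past 2-fold. Against the bright probes the assembly factors are a poor match, since many are dim, and the share of all probes past 2-fold given above is the nearer one.

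Partners of the chain outside the complexes stayed near their level. Besides Atp5md, which is also on this list, the adenine nucleotide carriers Slc25a4 and Slc25a5, the phosphate carrier Slc25a3, the ATP synthase inhibitor Atpif1, the heme lyase Hccs and the testis cytochrome c gene Cyct differed by -0.34 to 0.29 in every comparison. Slc25a31, the germ-cell carrier, was not above background. Among 10 regulators of these genes, 9 were measured. Nrf1 itself was at 1.98, 1.64 and 1.98 and Yy1 at 2.20, 2.37 and 2.77. Tfb2m, a mitochondrial transcription factor, was 1.25 higher in aging than in young blastocysts, Gabpb1, the partner of GABPA, was 1.25 lower in suppressed aging than in aging blastocysts, and Esrra, a nuclear receptor, was 1.22 lower in suppressed aging than in young ones. Ppargc1a, the coactivator PGC-1α, was above background on no array, while Ppargc1b was at 3.39, 2.44 and 3.08.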

How the data were processed

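The intensity of each spot was deposited by the authors as Feature Extraction (12.0.3.1, from the submitters' processing notes) wrote it, with the background subtracted and spatial trends removed and with no normalization between arrays. Their processed values are these intensities multiplied by a constant on each array (3.457, 3.339 and 3.963). The methods and the sample labels name different amplification kits, and which was used is not clear. The array annotation names build mm9. Gene names and promoters were taken from RefSeq tables of GRCm38.p6.

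Control spots and outlier spots (85 to 118 per array) were left out and no spot was saturated. Log2 intensities of replicate spots were averaged, and the 75th percentile of each array (an intensity of 122 to 155) was subtracted. A gene was read by its probe with the highest mean level. A probe above background on 1 of 2 arrays gave a bound and one above background on neither gave no difference. A 2-fold difference, a log2 value of 1, stood in for a test, since each condition had 1 array. The genes named are those past 2-fold, the highest and lowest of each complex, complex II, Cyc1 and Cycs, the isoforms, the core and F1 genes and genes with several probes. Some genes under this rule are given only by range, 1 gene is not reported here and is left out of the figures that name genes one by one, and values of other genes come from the lists of markers, assembly factors, partners and regulators. The members and lists were chosen with earlier results of these data known.

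Other settings tried were quantile normalization, background correction by normexp with an offset of 50 in limma 3.58.1 and 2 other centrings. The authors' processed values, other filters, the mean over probes and thresholds of 1.5-fold and 5-fold were also tried. The authors' processed values were re-centred on each array, which removes their constants. The calculation was tested on simulated data. R 4.3.3 and Python 3.11.15 were used, with Matplotlib 3.10.9, pandas 2.3.3 and NumPy 2.4.6.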

Additional observations from a re-analysis of the deposited data

How the results depend on the processing

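The count of member genes past 2-fold was small and moved with the handling of dim probes. For aging against young blastocysts it was 2, and it became 1 with normexp background correction or with probes above background on all arrays, 4 with no filter, 8 at 1.5-fold and 1 at 5-fold. For suppressed aging against aging blastocysts it was 1, and it became 0 with normexp correction, with probes above background on all arrays or at 5-fold, 2 with the mean over probes or with no filter, and 5 at 1.5-fold. For suppressed aging against young blastocysts it was 3, and it became 2 with normexp correction (without Cox6a2) or with probes above background on all arrays (without Cox7b2), 4 with the mean over probes (with Ndufb8), 5 with no filter, 8 at 1.5-fold and 1 at 5-fold. The median member difference stayed near 0. In aging against young blastocysts it was 0.04, and -0.03 with the authors' processed values re-centred on each array. The re-centring removed the authors' constant for each array, so this setting does not give the median on their own scale. Centring on the mean level of 15 housekeeping genes gave 0.12 and also moved the median of all probes from -0.03 to 0.05. In suppressed aging against aging blastocysts the median member difference was 0.05. It changed sign with normexp correction (-0.033), quantile normalization (-0.021) and housekeeping centring (-0.017). In suppressed aging against young blastocysts it lay between -0.00 and 0.07. The direction of a single gene held under every alternative for 68, 66 and 63 of 81 genes in the 3 comparisons, and in each setting that gave a value Ndufb10 was 1.75 to 1.93 lower in aging than in young blastocysts. The medians of the F1 and stalk genes of complex V in aging against young blastocysts kept their direction in all settings, at -0.41 to -0.27 and -0.60 to -0.45, and the median of complex V in suppressed aging against aging blastocysts lay between 0.03 and 0.14. No paired analysis was possible because a single array stands for every condition, and for the same reason no replicate could be left out. Signal over background limits Cox6a2, Cox7b2, Cox8b, Cox8c and Ndufa4l2.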
